A study of Mus musculus with 18 samples.

Results

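Mouse cortical neurons depolarised with KCl for 1 h were compared with neurons at 0 h on the second array of a pair, Affymetrix MOE430B, called set B. The members are 3 set B arrays at 1 h KCl and 3 at 0 h, chosen by the time and set letter in their titles, 6 of the 18 arrays of the study. The cells were primary cortical neurons from postnatal day 0 mice, also called embryonic in the labels, grown for 7 days in vitro before KCl was added at 55 mM per the sample labels or 50 mM per the series text. The study also holds 3 set B arrays at 6 h and 9 arrays of the companion chip MOE430A, called set A, at the same times. The 3 arrays of a time come from 3 independent experiments per the series text, and neither strain nor sex is stated. All neurons were of the same kind, with no genotype or drug named, and no untreated culture collected after 1 h is among the labels, so that 1 h of KCl and 1 h of handling cannot be told apart.

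A high concentration of extracellular KCl depolarises every cell of a dish at once and opens voltage-gated calcium channels, the L-type among them. The calcium that enters activates kinases and phosphatases that signal to the nucleus, where transcription factors already present switch on immediate early genes without new protein synthesis. Many products of that first wave are themselves transcription factors, which act on a second wave of genes for secreted factors, receptors and synaptic proteins. Set B was designed mostly around less well characterised transcripts and expressed sequence tags, with several well-known activity genes among them.

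At 1 h, 60 probe sets of set B were higher and 12 were lower than at 0 h. The largest rises were those of the transcription factor genes Npas4, Egr3 and Nr4a2. The mRNA-decay factor Tob1, the neuropeptide genes Adcyap1 and Vgf, the transcription factors Csrnp1 and Nr4a3, the scaffold genes Cnksr2 and Kidins220 and the non-coding RNAs Malat1 and Mir22hg were also among the 15 genes that rose most. The largest falls were those of the axonal adhesion gene Cntn2 and the cell-death gene Hrk. A probe set is a group of short probes against 1 transcript, and 22511 of them were tested with limma at a Benjamini-Hochberg adjusted p under 0.05. That is 0.32% of all probe sets, 0.267% higher and 0.0533% lower. Of the 60, 18 rose by more than 2 on the log2 scale, 26 by 1 to 2 and 16 by less than 1, with a median of 1.59, against a median difference of -0.01 over all probe sets. The 12 falls lay between -1.70 and -0.76, with a median of -1.06.

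The 60 probe sets carried 54 gene symbols, 0.562% of the 9607 genes on set B, and the 12 carried 12 (0.125%). All 72 moved the same way in 3 of 3 same-numbered pairs of arrays. The 72 were called on these same arrays, so this agreement and the separation given next follow largely from the selection. They describe the called probe sets and add no support for them. After normalization the 1 h arrays lay wholly above the 0 h arrays for 59 of the 60, the exception being Cacna2d1, and wholly below them for 12 of 12, against 4.63% and 5.3% of all probe sets. On the deposited scale this held for 56 of the 60 and 10 of the 12, against 5.13% and 4.27%, the others being Cacna2d1, Rims1, Prkar2a and a probe set of A830010M20Rik among the rises and Myt1l and Islr2 among the falls. Signals at 0 h averaged below the background level for 14 of the 60, and lay below it on all 3 arrays for 11. The background level, a signal of 369, is where the 95th percentile fell among 27 probe sets for bacterial transcripts. At an unadjusted p under 0.05, 982 probe sets were higher and 897 lower. Fits without the arrays numbered 1, 2 or 3 at every time called 11, 3 and 5 higher and 2, 0 and 0 lower. Without 1 array of the 1 h group the totals were 13, 11 and 6 higher and 3, 0 and 0 lower. Without 1 of the 0 h group they were 14, 14 and 53 higher and 0, 0 and 4 lower. Of the 53 called without the 0 h array numbered 3, 35 were among the 60, and of the 14 without the 0 h array numbered 1, 13 were. Among the 12 were 1 of the 2 lower without the arrays numbered 1 and 2 of the 3 lower without the 1 h array numbered 1. In the other fits all calls were among the 60 and 12. In these fits with limma, 776 to 893 probe sets were higher and 638 to 825 lower at an unadjusted p under 0.05.

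**Figure D1:**
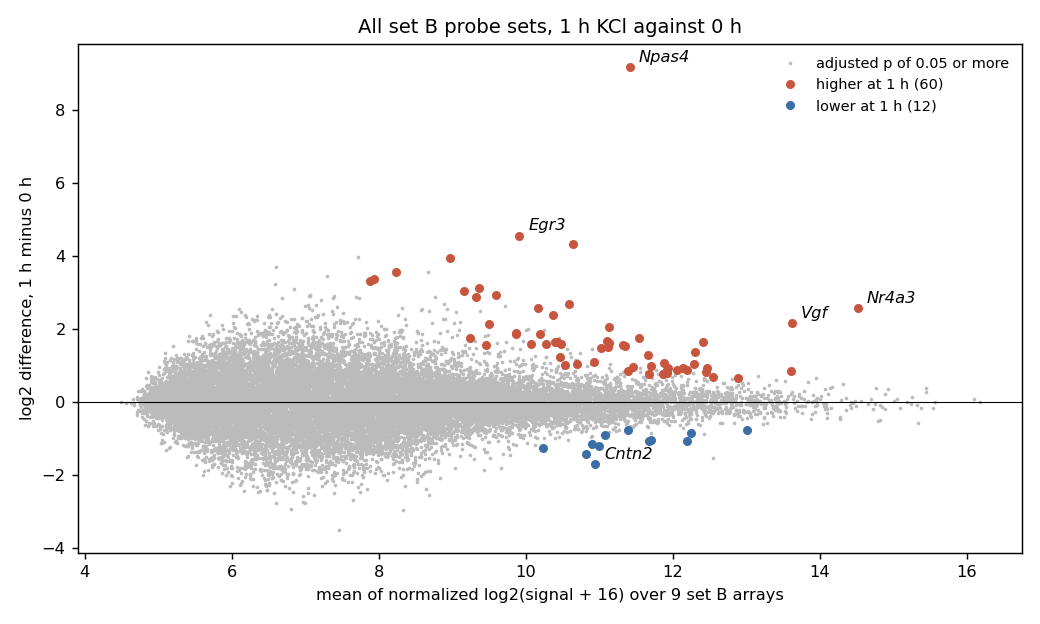
Log2 difference, 1 h KCl minus 0 h, against the mean normalized log2(signal + 16) over the 9 set B arrays, 1 point per probe set. The 60 probe sets higher at 1 h (red) reach 9.16 for Npas4, and the 12 lower (blue) reach -1.70 for Cntn2. The spread of the grey points is widest at low signal.

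Control ratios that follow RNA integrity differed between the groups. The ratio of the 5′ to the 3′ probe set of Actb, which falls when RNA or cDNA is shortened, was 0.650 ± 0.070 at 1 h and 0.366 ± 0.084 at 0 h (SD, n = 3 each), with no overlap, and that of Gapdh was 1.18 ± 0.114 at 1 h and 0.855 ± 0.218 at 0 h, with overlap. With the Gapdh ratio of each array as a covariate, chosen after seeing the data, limma called 0 probe sets in either direction, with 576 higher and 482 lower at an unadjusted p under 0.05. In that fit the log2 difference stayed within 1.5 times of its value for 42 of the 72 probe sets, was smaller by more than that for 26 and larger for 4. It was 2.80 for Nr4a3, 4.86 for Egr3, 2.22 for Mir22hg and -1.60 for Hrk, all near their values without the covariate, but 1.04 for Adcyap1, 0.61 for Cnksr2, 0.80 for Kidins220 and 0.04 for Prkar2b. The arrays numbered 1 hold values below 0, in 27.4% of all probe sets at 1 h and 27.6% at 0 h, while the arrays numbered 2 and 3 hold none, so the arrays numbered 1 were not summarised like the others. The summed signal of 5 astrocyte markers was 17619 to 20273 at 1 h and 18263 to 22768 at 0 h, and that of 7 neuron markers, Map2, Syt1 and Gad2 among them, was 64494 to 85200 at 1 h and 56992 to 85826 at 0 h. None of these 12 genes passed the test. Of the other marker lists, Pdgfra of the oligodendrocyte lineage and Dcn, Flt1 and Col1a2 of vascular cells and fibroblasts were measured on set B, and the sums of these lists were 0 to 165 and 306 to 753 at 1 h, against 0 to 25.1 and 244 to 580 at 0 h. On set A the sum of 11 neuron markers was 46230 to 50565 at 1 h and 43767 to 46058 at 0 h, with 2 of them higher. There 7 oligodendrocyte lineage markers, 6 of them above background, summed to 5650 to 7542 at 1 h and 6833 to 9213 at 0 h. The sum of 10 vascular and fibroblast markers on set A was 807 to 1221 at 1 h and 828 to 986 at 0 h. In both of these lists 0 were higher and 0 lower. Microglia markers were measured on set A only, with sums of 817 to 950 at 1 h and 827 to 1099 at 0 h. In total RNA of whole cultures, fewer cells of a type and less RNA per cell cannot be told apart.

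Npas4, a neuronal transcription factor of the bHLH-PAS family that is switched on by calcium entry and is known for regulating the number of inhibitory synapses, changed most. Its probe set 1459372_at had signals of 40562, 32312 and 24395 at 1 h, against -567, 31.9 and 141 at 0 h. All 3 arrays at 0 h were below background and all 3 at 1 h were far above it. The fitted log2 difference was 9.16 ± 0.43 (SE, adjusted p = 1.69e-05), a value that depends on the 16 added before the logarithm, and the rise was at least 85.9-fold against the background level. At 6 h the signals were 14125, 13594 and 6838.

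Egr3, a zinc-finger factor of the early growth response family, had 7874, 4173 and 6245 at 1 h, against 170, 206 and 298 at 0 h. It rose by a log2 difference of 4.55 ± 0.25 (adjusted p = 5.79e-05), at least 16-fold over background. Its mean signal at 6 h was 675, so that of the 3 times the second had by far the highest level. Nr4a2 and Nr4a3 are orphan nuclear receptors that act without a known ligand. Nr4a2 had 6911, 3900 and 5303 at 1 h, against 327, 429 and 117 at 0 h, a log2 difference of 4.32 ± 0.40 (adjusted p = 0.00335). A second of its probe sets rose by 2.69 ± 0.26, while its 2 others, with mean signals under background at both times, differed by 0.85 and 0.34 and did not pass. Nr4a3 already had a signal well above background at 0 h. Its signals were 40999, 30734 and 33402 at 1 h, against 6825, 6083 and 5876 at 0 h, a log2 difference of 2.57 ± 0.10 (adjusted p = 5.55e-06), with the smallest standard error of the 15 largest rises. At 6 h its mean was 59007, higher than at 1 h, whereas that of Nr4a2 was 2844, lower than at 1 h.

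Csrnp1, a nuclear protein of the cysteine- and serine-rich family, had 1287, 1038 and 1175 at 1 h, against 223, 124 and 103 at 0 h, at least 3.15-fold over background (log2 difference 3.05 ± 0.38, adjusted p = 0.0179). Its other set B probe set averaged 589 at 1 h and 456 at 0 h and did not pass (0.50 ± 0.36). Fosl2, a Fos-family subunit of the AP-1 factor, had 4781, 1965 and 3801 at 1 h, against 969, 958 and 905 at 0 h (1.76 ± 0.24, adjusted p = 0.0229), and 8563 on average at 6 h. In the list of immediate early transcription factors, 6 of the 15 genes measured on set B were higher and 0 lower by their brightest probe set, namely Npas4, Egr3, Nr4a2, Csrnp1, Nr4a3 and Fosl2. Over all 9607 genes the share higher by the brightest probe set was 0.406% and the share lower 0.125%. By any probe set 0.562% were higher. The counts of every list below are to be read beside these shares. All lists, this one included, were chosen with earlier results of these data known, so their counts are a description and no test. The median log2 difference of the immediate early list was 0.50, against -0.03 over all genes. The 2 brightest members that did not pass were Csrnp3, at 3709 on average at 1 h and 4676 at 0 h (-0.29), and Csrnp2, at 1835 at 1 h and 2445 at 0 h (-0.46). Without the arrays numbered 1, 5 of the 6 passed.

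**Figure D2:**
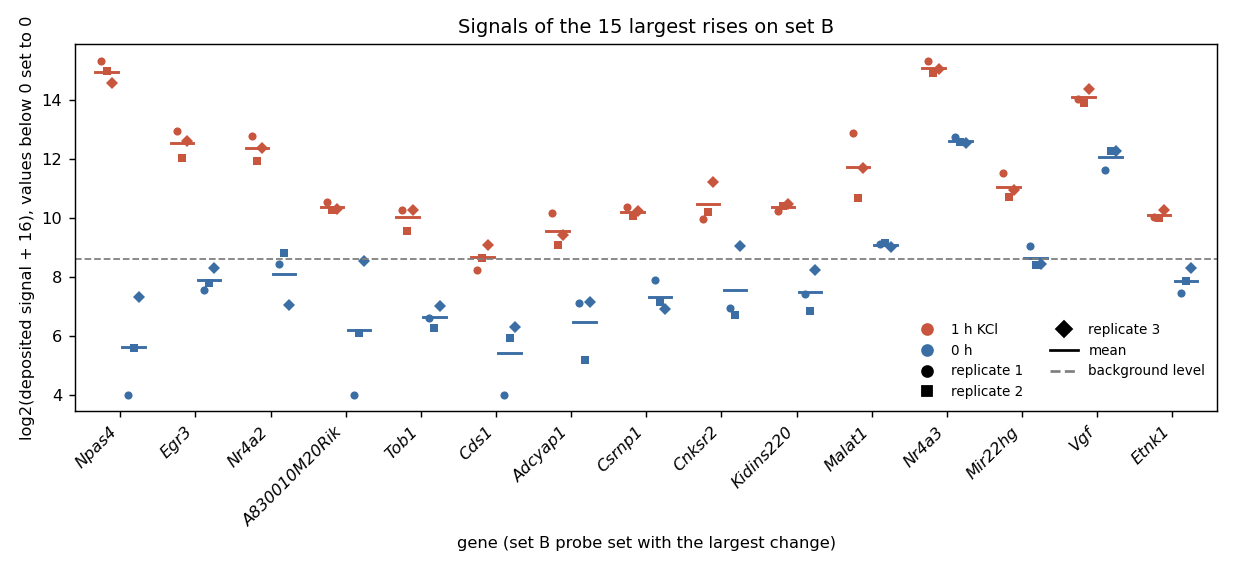
Log2(signal + 16) on each array at 1 h KCl (red, left) and 0 h (blue, right) for the 15 genes with the largest rises on set B, with replicates 1, 2 and 3 as circles, squares and diamonds, group means as bars and the background level as a dashed line. Npas4, Nr4a3 and Vgf have the highest 1 h signals, and many of the other genes start at or below the background level.

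The regions around the starts of these genes are shown for 4 that rose. RefSeq's windows run from 250 bases before the start of a gene to 50 after it, on GRCm38.p6, and are written in the direction of transcription. Npas4 and Nr4a2 are given as the largest change and the largest with several motifs, Cds1 for its full cyclic-AMP response element, and Csrnp1 for a pair of AP-1 sites. Capitals mark matches to TGACGTCA (the element bound by CREB), to its short form TGACG, to TGANTCA (AP-1), to GCGNGGGCG (EGR) and to the MEF2 motif, on either strand. The short form is contained in the full element.

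Npas4 (chr19:4989922-4990221, minus strand): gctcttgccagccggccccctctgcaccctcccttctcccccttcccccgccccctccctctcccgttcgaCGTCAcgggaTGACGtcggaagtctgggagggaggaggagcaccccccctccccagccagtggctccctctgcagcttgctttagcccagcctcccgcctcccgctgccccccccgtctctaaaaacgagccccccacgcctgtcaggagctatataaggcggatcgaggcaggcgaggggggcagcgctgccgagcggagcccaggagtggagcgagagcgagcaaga
Nr4a2 (chr2:57123954-57124253, minus strand): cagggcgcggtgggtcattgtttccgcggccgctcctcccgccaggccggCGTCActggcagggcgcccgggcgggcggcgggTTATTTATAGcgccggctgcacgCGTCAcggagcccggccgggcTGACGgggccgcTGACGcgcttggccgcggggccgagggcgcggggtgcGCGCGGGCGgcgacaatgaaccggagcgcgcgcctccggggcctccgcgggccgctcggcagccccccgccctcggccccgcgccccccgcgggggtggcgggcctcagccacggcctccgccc
Cds1 (chr5:101764880-101765179, plus strand): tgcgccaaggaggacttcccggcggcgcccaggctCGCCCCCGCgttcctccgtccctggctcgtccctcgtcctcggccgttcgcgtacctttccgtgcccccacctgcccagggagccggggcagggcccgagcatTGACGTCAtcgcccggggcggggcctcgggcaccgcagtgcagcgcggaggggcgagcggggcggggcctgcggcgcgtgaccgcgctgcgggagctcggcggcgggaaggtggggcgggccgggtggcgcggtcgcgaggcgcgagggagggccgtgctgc
Csrnp1, 1 of several starts (chr9:119982974-119983273, minus strand): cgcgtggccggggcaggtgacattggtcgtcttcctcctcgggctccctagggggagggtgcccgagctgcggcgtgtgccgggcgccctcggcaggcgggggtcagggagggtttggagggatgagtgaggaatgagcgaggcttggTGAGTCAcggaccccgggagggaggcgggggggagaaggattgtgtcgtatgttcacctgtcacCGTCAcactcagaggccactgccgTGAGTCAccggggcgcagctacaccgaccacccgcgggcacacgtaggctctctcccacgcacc

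The Npas4 window holds a pair of short forms in opposite orientation, which begin at positions -179 and -169 from the start. The Nr4a2 window holds 4 short forms, a MEF2 match at -167 and an EGR match at -74. In the Cds1 window the full element begins at -112 and an EGR match at -215, and in the Csrnp1 window the AP-1 matches begin at -102 and -14. Of the 54 genes that rose, 46 had a window, and of the 12 that fell, 9. The short form was in a window of 28 of the 46 and 2 of the 9, against 23.0% of the 27025 genes with a window (20.8% of 32851 windows). It was added to the search after the sequences had been read. The full element was in 3 of the 46, Cds1, Gpbp1 and Ralgapa1, and in 0 of the 9, against 2.03% of genes (1.79% of windows). The EGR motif was in 10 of 46 and 1 of 9, against 6.27% of genes (5.55% of windows), the AP-1 motif in 5 of 46 and 1 of 9, against 8.97% (7.81%), the MEF2 motif in 2 of 46 and 1 of 9, against 3.7% (3.19%), and the CArG box, the motif of serum response factor, in none of either, against 1.81% (1.63%). A match is a description of the letters and shows no binding.

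Among the secreted factors, Vgf and Adcyap1 were higher. Vgf is a precursor of several neuropeptides that neurons release from dense-core vesicles. Its signals were 16826, 15325 and 21134 at 1 h, against 3154, 4859 and 4850 at 0 h, a log2 difference of 2.15 ± 0.20 (adjusted p = 0.00335). Adcyap1 encodes the neuropeptide PACAP, whose receptors raise cyclic AMP. It had 1129, 522 and 663 at 1 h, against 121, 20.4 and 124 at 0 h, at least 1.98-fold over background (3.10 ± 0.39, adjusted p = 0.0179). Both had their highest means at 6 h, 27524 for Vgf and 4783 for Adcyap1. These were 2 of the 18 genes measured in the list of neuropeptides and secreted factors, with 0 lower and a median of 0.26. The growth-factor relative Fgf12 had 4658 at 1 h and 4140 at 0 h (0.23) and the secreted ligand Wnt7a 1795 and 2319 at 1 h and 0 h (-0.21), and neither passed. Without the arrays numbered 1, 1 member of the list passed.

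Tob1 belongs to the BTG/Tob family, whose members recruit the deadenylases that shorten the poly(A) tails of mRNAs. Its signals were 1220, 727 and 1222 at 1 h, against 80.6, 60.2 and 113 at 0 h, at least 2.78-fold over background (3.55 ± 0.48, adjusted p = 0.0229). The 1 h values were all above and the 0 h values all below background. Of 42 measured genes for RNA binding, splicing and decay, 1, Tob1, was higher by its brightest probe set and 0 lower, with a median of 0.17 and with 3 higher and 4 lower at an unadjusted p under 0.05. The RNA-binding proteins Celf5 (11435 at 1 h and 12844 at 0 h, -0.14) and Rbfox1 (11383 at 1 h and 10455 at 0 h, 0.17), the brightest other members, did not pass.

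The scaffold proteins Kidins220 and Cnksr2 link receptors at the neuronal membrane to Ras and MAP kinase signalling. Cnksr2 had 983, 1167 and 2372 at 1 h, against 106, 88.0 and 512 at 0 h (2.93 ± 0.42, adjusted p = 0.0282). Its other set B probe set averaged 409 at 1 h and 219 at 0 h and did not pass (0.50 ± 0.45). Kidins220 had 1175, 1330 and 1387 at 1 h, against 153, 98.3 and 285 at 0 h on 1 probe set, at least 3.50-fold over background (2.88 ± 0.36, adjusted p = 0.0179). A second probe set of the gene rose by 1.65 ± 0.22, with means of 2348 at 1 h and 721 at 0 h. The brightest probe set of Kidins220 did not pass, with means of 24871 at 1 h and 25686 at 0 h (-0.04 ± 0.10), and the remaining one differed by 0.30. The probe sets of this gene therefore disagreed, and the rise was seen on the dimmer of them. Cds1 makes CDP-diacylglycerol, a precursor of phosphatidylinositol, and Etnk1 is the kinase that starts the ethanolamine branch of phospholipid synthesis. Cds1 had 284, 383 and 527 at 1 h, against -185, 44.3 and 62.3 at 0 h, at least 1.04-fold over background (3.30 ± 0.54, adjusted p = 0.0446). The lowest of its 1 h arrays was itself below background, so the rise on this probe set is measured only just above that level. The other set B probe set of Cds1, which is brighter, averaged 961 at 1 h and 659 at 0 h. It did not pass (0.50 ± 0.23, adjusted p = 0.605) and its groups overlapped. Etnk1 had 1017, 995 and 1199 at 1 h, against 157, 216 and 295 at 0 h, at least 2.89-fold (2.13 ± 0.24, adjusted p = 0.0122), and its other set B probe set, below background at both times, differed by -0.37.

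Malat1 and Mir22hg are long non-coding RNAs. Malat1, an abundant nuclear RNA, had 7429, 1600 and 3265 at 1 h, against 532, 546 and 502 at 0 h (2.57 ± 0.33, adjusted p = 0.0182). The 1 h arrays of Malat1 spread over a range far wider than the 0 h arrays, and the 6 h mean was 808. The other, brighter set B probe set of Malat1 averaged 2381 at 1 h and 1000 at 0 h and did not pass (1.04 ± 0.32, adjusted p = 0.368). At 6 h it averaged 5236, so the 2 probe sets disagreed on the level at 6 h. Mir22hg had 2916, 1645 and 1966 at 1 h, against 511, 321 and 332 at 0 h (2.38 ± 0.22, adjusted p = 0.00335), and averaged 2627 at 6 h. It is the host of miR-22, whose mature forms from RefSeq are shown because the host transcript rose, with the seed, bases 2 to 8, in capitals. The mature miRNAs themselves are not measured by these arrays.

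mmu-miR-22-5p (chr11:75463734-75463755, plus strand): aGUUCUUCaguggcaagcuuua
mmu-miR-22-3p (chr11:75463772-75463793, plus strand): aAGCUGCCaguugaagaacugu

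In the list of long non-coding RNAs, 1 of 26 measured genes, Mir22hg, was higher by its brightest probe set and 2 by any, with a median of -0.04. A830010M20Rik, a gene known here only by its clone name, had 1469, 1226 and 1238 at 1 h, against -0.7, 53 and 351 at 0 h, at least 3.53-fold over background (3.95 ± 0.60, adjusted p = 0.0324). A second of its probe sets rose by 0.86 ± 0.13, with means of 5262 at 1 h and 3011 at 0 h. Of the probe sets without a gene symbol, 1431197_at rose by 3.36 ± 0.56, with all 3 signals at 0 h below background, and 1455166_at rose by 1.04 ± 0.16.

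The remaining rises were smaller, and the genes named in this and the next paragraph were chosen after their values were seen, apart from those the lists name. Rgs2, which shortens G-protein signalling, had 4849, 3572 and 3937 at 1 h, against 1991, 1389 and 1498 at 0 h (1.38 ± 0.11, adjusted p = 0.00084), and 20063 on average at 6 h. Homer1, a postsynaptic scaffold that binds metabotropic glutamate receptors, had 1966, 1591 and 1626 at 1 h, against 1067, 867 and 685 at 0 h (0.96 ± 0.14, adjusted p = 0.0319), and 14837 on average at 6 h. Both are in the list of synaptic and signalling effectors, in which 1 of 18 was higher by the brightest probe set and 2 by any, with a median of 0.38. Dusp4, a phosphatase that switches off MAP kinases in the nucleus, averaged 3823 at 1 h and 2093 at 0 h (0.93 ± 0.13), and 11588 at 6 h. Of 31 measured kinases and kinase brakes, Dusp4 alone was higher and 0 were lower, against 0.406% and 0.125% of all genes. The list's median was 0.09. In that list Dusp5, a relative of Dusp4, had a log2 difference of 3.97 with an adjusted p of 0.124, and Spry4 of 0.84 with an adjusted p of 0.0953. Both were picked after their values were seen. At an unadjusted p under 0.05 with limma, 4 members of the list were higher and 3 lower, Camk2a (-0.96) and Prkce (-0.66) among the latter. The 2 brightest members that did not pass were Ppp3cb (35598 at 1 h and 33059 at 0 h, 0.09) and Dclk1 (18650 at 1 h and 16767 at 0 h, 0.18). Hdac9, a class IIa histone deacetylase regulated by calcium signals, averaged 1916 at 1 h and 659 at 0 h (1.48 ± 0.18, adjusted p = 0.017), and 6976 at 6 h, and of 58 chromatin regulators it alone was higher and 0 were lower, with a median of -0.12.

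Prkar2b and Prkar2a, regulatory subunits of protein kinase A, rose by 1.63 ± 0.25 and 0.65 ± 0.11. Sphkap, an anchoring protein for that kinase, averaged 8418 at 1 h and 4827 at 0 h (0.93 ± 0.15). Atp2b1, a plasma membrane calcium pump, averaged 6708 at 1 h and 3981 at 0 h (0.81 ± 0.14), and Cacna2d1, an auxiliary subunit of voltage-gated calcium channels, 7892 at 1 h and 5206 at 0 h (0.69 ± 0.12), with overlapping signals. Other single genes that rose were Srp72 of the signal recognition particle (1.66 ± 0.21), the cargo protein Tmed7 (1.53 ± 0.23), the secretory carrier Scamp1 (1.6 ± 0.25), the thioredoxin-related membrane protein Tmx4 (1.88 ± 0.28) and the endoplasmic reticulum selenoprotein Selenok (0.84 ± 0.11). They were picked from the called genes and stand for no group. Lrrc4c, a postsynaptic ligand of netrin-G1, rose by 1.27 ± 0.16, Rims1 of the presynaptic active zone by 0.76 ± 0.11 and the guidance receptor Epha5 by 0.77 ± 0.13. Snx7, a sorting nexin, had 3180, 2848 and 3206 at 1 h, against 1179, 940 and 1008 at 0 h (1.55 ± 0.15, adjusted p = 0.00435). Several genes of this paragraph have other set B probe sets, none of which passed. The lowest differences were -0.07 for Tmx4, 0.15 for Srp72, 0.06 for Epha5, 0.05 for Cacna2d1 and -0.32 for Prkar2a. Another probe set of Rims1 differed by 0.99.

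The falls were seen in genes with clear signals at 0 h. Their mean signals ranged over 881 to 8979 at 1 h and 2234 to 15192 at 0 h, so none ended at the background level. Cntn2, an axonal adhesion molecule of the immunoglobulin family, had 3113, 1608 and 1801 at 1 h, against 9335, 6563 and 5614 at 0 h (-1.70 ± 0.23, adjusted p = 0.0229), and averaged 561 at 6 h. Its 2 other set B probe sets differed by -1.14 and -0.70 and did not pass. Hrk, a BH3-only protein that promotes neuronal death, had 1436, 1568 and 1398 at 1 h, against 3850, 4265 and 4273 at 0 h (-1.42 ± 0.17, adjusted p = 0.017), with very little spread in either group. Myt1l, a zinc-finger factor that represses non-neuronal genes, had 8008, 3360 and 4160 at 1 h, against 17720, 9293 and 6548 at 0 h (-1.06 ± 0.13, adjusted p = 0.0179). The array numbered 1 was the highest of its group at both times, so that the deposited signals overlapped while all 3 pairs fell, and another bright probe set of Myt1l averaged 3751 at 1 h and 3969 at 0 h and did not pass (0.13).

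Slc6a11, the GABA transporter GAT3, had 3008, 2771 and 2168 at 1 h, against 6516, 6173 and 4574 at 0 h (-1.06 ± 0.18, adjusted p = 0.049). Of 18 inhibitory synapse genes, it alone was lower and 0 were higher, with a median of 0.07. The transporter is made mostly by astrocytes in the brain. The summed astrocyte markers on set B, given above, overlapped between the groups, while on set A the sum of 8 such markers was 10301 to 13414 at 1 h and 15121 to 15815 at 0 h, with 1 of the 8 lower, and the part of this in the fall of Slc6a11 was not tested. Peak1, a pseudokinase of the cytoskeleton, fell by 1.25 ± 0.17, and Ubash3b, a phosphatase that dampens tyrosine kinase signalling, by 1.19 ± 0.19. Another probe set of Ubash3b went the other way without passing, with means of 1251 at 1 h and 803 at 0 h (0.58 ± 0.21, adjusted p = 0.484) and no overlap, and a further one differed by -0.61. The zinc-finger genes Zfp462 and Zfp41 fell by 1.16 ± 0.18 and 0.76 ± 0.12. Sertm1, a small membrane protein, averaged 1824 at 1 h and 3896 at 0 h (-1.04 ± 0.14), but 5343 at 6 h. Islr2, a leucine-rich repeat membrane protein of axons, fell by 0.90 ± 0.15, Gas7, a regulator of neurite shape, by 0.84 ± 0.12, and Pnmal2, of the paraneoplastic antigen family, by 0.76 ± 0.11. Another probe set of Gas7 differed by 1.14 in the other direction and did not pass (adjusted p = 0.163). A further probe set of Pnmal2 averaged 751 at 1 h and 719 at 0 h and did not pass (-0.03 ± 0.32). Neither did another of Zfp462 (-0.47 ± 0.24) nor another of Peak1 with signals near background (0.07 ± 0.37).

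**Figure D3:**
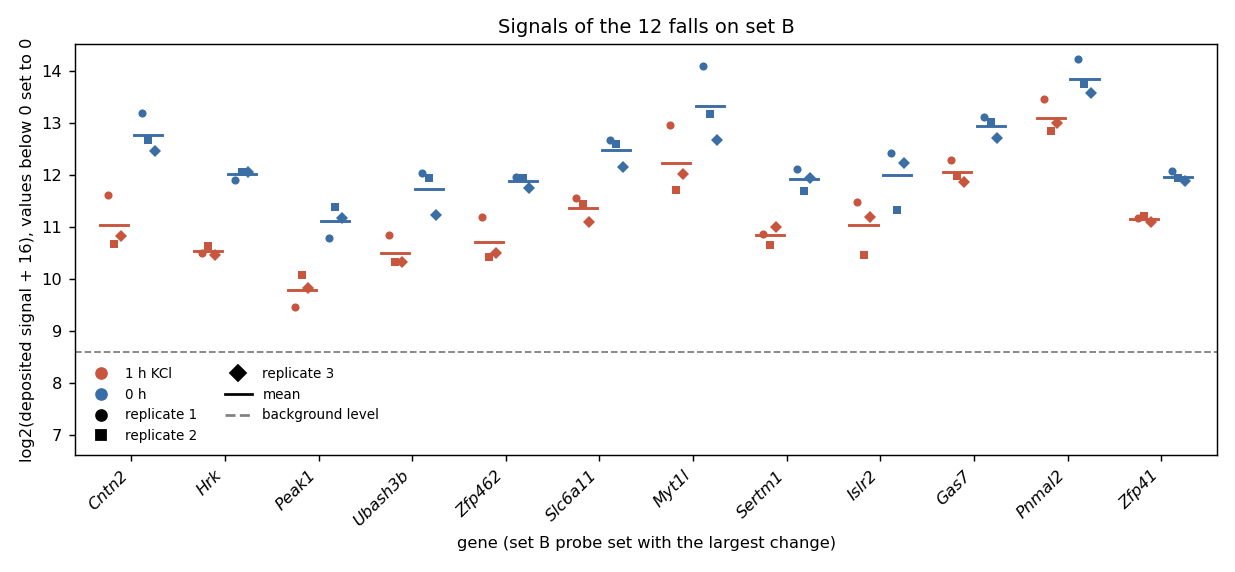
Log2(signal + 16) on each array at 1 h KCl (red, left) and 0 h (blue, right) for the 12 genes that fell on set B, with replicates as circles, squares and diamonds, group means as bars and the background level as a dashed line. The 1 h mean lies below the 0 h mean for all 12 genes, with the points of the groups overlapping for Myt1l and Islr2 only, and all points stay above the background level.

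Most listed genes of the same pathways did not pass. Over 20 lists, 557 of the 974 genes listed were measured on set B, of which 17 were higher and 1 lower by their brightest probe set. The shares over all 9607 genes were 0.406% higher and 0.125% lower. Among synaptic genes, 1 of 26 excitatory synapse genes was higher (Lrrc4c, list median 0.06), 1 of 29 vesicle release genes (Rims1, 0.09) and 1 of 32 voltage-gated channel genes (Cacna2d1, -0.06). The 2 brightest inhibitory synapse genes that did not pass were Nrxn2, a presynaptic adhesion gene, which averaged 6272 at 1 h and 10255 at 0 h (-0.58), and the GABA-A receptor gene Gabrb2, which averaged 5300 at 1 h and 3907 at 0 h (0.55). For axon guidance and adhesion 1 of 50 was higher (Epha5, -0.01). No gene passed among 73 ubiquitin ligases and adaptors (median 0.03), 62 small GTPase regulators (0.02), where Rab6b passed with a dimmer probe set, and 48 nuclear receptors, Krüppel-like and circadian factors (-0.04). At an unadjusted p under 0.05, limma gave 9, 6 and 3 genes higher and 3, 2 and 9 lower in these last lists. Nr4a2 and Nr4a3, which rose, are nuclear receptors too, but were counted with the immediate early transcription factors. Without the arrays numbered 1, 1 effector and 1 long non-coding RNA still passed, and none of the single members of the kinase, inhibitory, excitatory, channel, vesicle, guidance, chromatin and RNA lists.

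**Figure D4:**
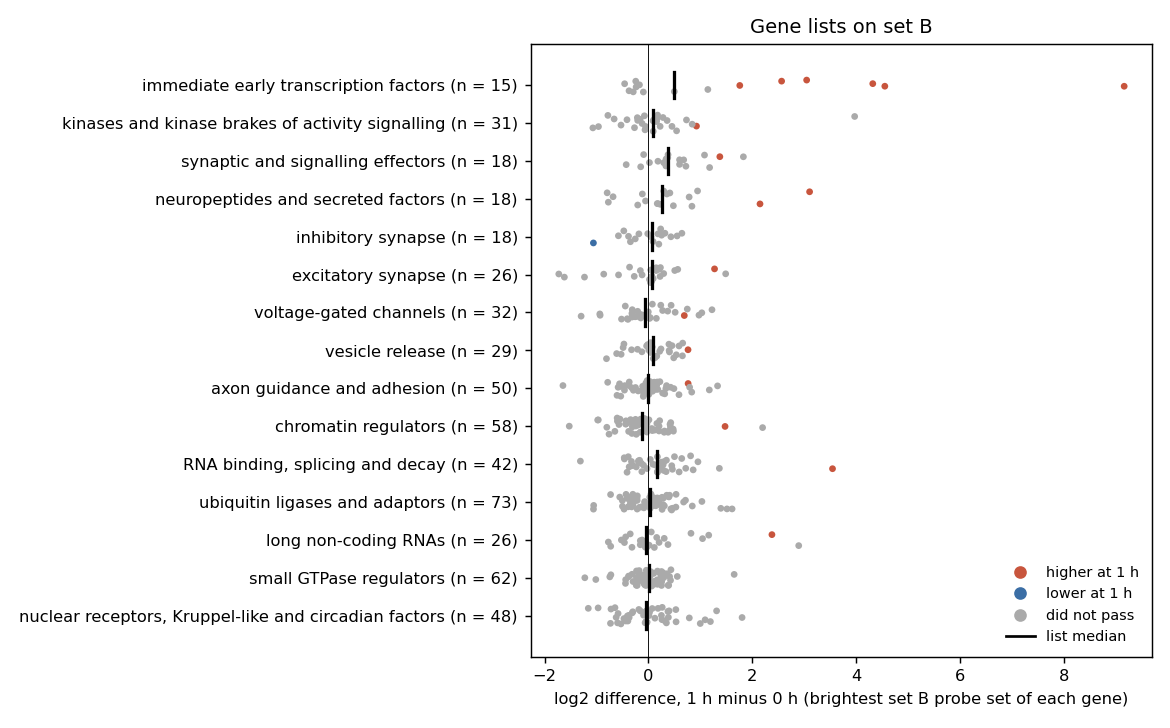
Log2 difference, 1 h KCl minus 0 h, of the brightest set B probe set of each measured gene in 15 lists, with genes higher at 1 h in red, lower in blue, others in grey, and the list median as a black bar. The 6 red points of the immediate early transcription factors stand out from 0, and no other list has more than 2.

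Of the 66 genes changed on set B, 45 had more than 1 set B probe set, and for 3 of these, Nr4a2, Kidins220 and A830010M20Rik, more than 1 passed. The companion array set A carried a probe set for 26 of the 54 genes that rose and 5 of the 12 that fell. The other 28 rises, Npas4, Vgf, Csrnp1, Kidins220, Cnksr2, Mir22hg, Cds1 and Dusp4 among them, and 7 falls were measured on set B alone. On set A, where 1.36% of genes were higher and 0.984% lower by the brightest probe set, 8 of the 26 were higher and 0 lower. These were Nr4a2 (1.61 ± 0.24), Tob1 (1.65 ± 0.22), Adcyap1 (1.41 ± 0.20), Hdac9 (2.43 ± 0.34), Rgs2 (2.23 ± 0.17), Ralgapa1 (1.6 ± 0.30), Rbm12 (0.73 ± 0.17) and Zfand5 (0.55 ± 0.11). By any set A probe set 11 of the 26 were higher, against 3.5% of all set A genes. Of the 26 brightest probe sets 23 had a positive difference, against 46.5% over all set A genes. The 5′ to 3′ ratio of Actb differed between the groups on set A as well, at 0.669 ± 0.0496 at 1 h and 0.391 ± 0.122 at 0 h (SD, n = 3 each). Whether the arrays of the 2 sets carried the same RNA was not tested, so set A is not taken as an independent repeat of set B.

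Egr3, Nr4a3, Malat1 and Fosl2 rose on set B and did not pass with their brightest probe set on set A. Egr3 had 170, 409 and 315 on set A at 1 h, against 177, 105 and 166 at 0 h (0.87 ± 0.44, adjusted p = 0.328). For Nr4a3 both set A probe sets were dim, with means of 62.0 at 1 h and 53.4 at 0 h on 1 of them, under the set A background of 74.8, and 93.3 at 1 h and 14.9 at 0 h on the other (1.70 ± 0.51, adjusted p = 0.102). Malat1 differed by -0.25 to 0.57 over its 5 set A probe sets. Fosl2 averaged 166 at 1 h and 171 at 0 h on its only set A probe set (-0.04 ± 0.26), both above the set A background. Etnk1 did not pass with its brightest set A probe set (0.15 ± 0.10) but rose by 1.67 ± 0.23 with another. Of the 5 falls, none passed on set A with limma by any probe set. By the brightest probe set Cntn2 differed by -0.31, Hrk by 0.11, Gas7 by 0.12, Myt1l by 0.31 and Peak1 by 0.77. Among these 5 values only that of Peak1 had an unadjusted p under 0.05 with limma. The Peak1 probe set averaged 55.5 at 1 h and 25.9 at 0 h on set A, both under the set A background. The dimmer of the 2 set A probe sets of Myt1l averaged 73.8 at 1 h and 27.5 at 0 h, both also under the set A background. It differed by 1.10, with an unadjusted p of 0.0213 and an adjusted p of 0.18 with limma. Levels on the 2 sets are on different scales and were not compared.

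**Figure D5:**
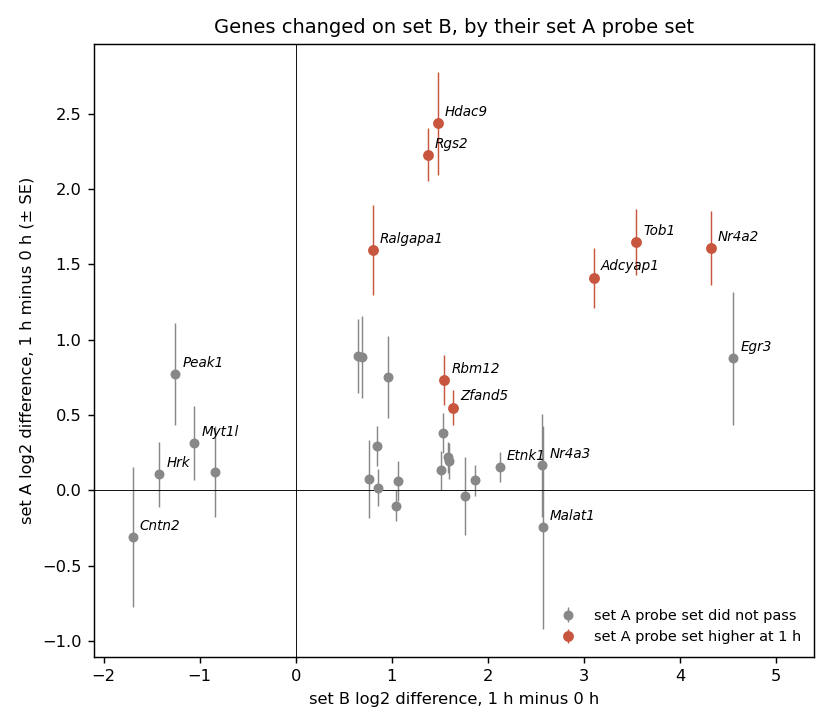
Log2 difference, 1 h minus 0 h, on set A (vertical, ± SE) against that on set B (horizontal) for the 31 genes changed on set B that have a set A probe set, with those higher on set A in red. The 8 red points are all genes that rose on set B, and of the 5 genes that fell on set B only Cntn2 has a set A difference below 0.

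The named changes differed in how they held under other settings. Of 21 alternatives in normalization, background, model and arrays left out, Npas4 and Nr4a3 passed in 19, Egr3 and Nr4a2 in 18, Rgs2 in 17, Mir22hg and Vgf in 15, Csrnp1 in 12, Kidins220 in 11, Adcyap1 and Hrk in 10, and Tob1, Etnk1 and Cntn2 in 9. Malat1 passed in 8, Cnksr2, Peak1, Zfp462, Myt1l and Pnmal2 in 7, A830010M20Rik, Ubash3b and Sertm1 in 6, Gas7 in 5, Cds1 and Zfp41 in 4, Slc6a11 in 3 and Islr2 in 2. Of the other genes given with values, Snx7 passed in 14, Srp72 and Hdac9 in 10, Prkar2b, Lrrc4c and Selenok in 8, Fosl2, Homer1 and Tmx4 in 7, Dusp4, Sphkap, Rims1, Scamp1 and Tmed7 in 5, Prkar2a and Cacna2d1 in 3, Epha5 in 2 and Atp2b1 in 1. The difference of Prkar2b ranged over 0.04 to 1.87, that of Tmed7 over 0.33 to 1.86, that of Srp72 over 0.46 to 1.89 and that of Atp2b1 over 0.15 to 0.97. No difference of the 72 probe sets changed sign in any of them.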

How the data were processed

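RNA of mouse cortical neurons was hybridised to Affymetrix MOE430A and MOE430B arrays after labelling of 200 ng total RNA, per the labels' protocols. The values are the authors' deposited linear signal intensities, 1 per probe set and array, and the method that summarised the probes is not given in the sources used here. Set B values below 0 were set to 0, 16 was added, log2 was taken and the 9 set B arrays were quantile-normalized. Set A was left on its deposited scale. limma 3.58.1 in R 4.3.3 fitted time with the replicate number as a block, over all 9 arrays of a set, with an intensity trend, two-sided tests and Benjamini-Hochberg adjustment over all non-control probe sets. On set B the deviations of arrays numbered 1 correlated with each other at 0.417 to 0.446 and with the other numbers at -0.287 to -0.214. Within numbers 2 and 3 the values were 0.132 to 0.179, and between 2 and 3 they were 0.123 to 0.176, so the pattern sets number 1 apart and shows no pairing of 2 or 3. On set A the same-number values were 0.00844 to 0.139 and the different-number values -0.102 to 0.0270. Within numbers 2 and 3 of set A the values were 0.00844 to 0.0943, and between 2 and 3 they were -0.0406 to 0.0196. The series text calls the replicates independent experiments. With 4 residual degrees of freedom, precision is limited by how few arrays there are.

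Of 22511 set B probe sets, 14661 had 1 gene symbol in the platform annotation, 245 several and 7605 none, and 14499 of the 14661 matched RefSeq by gene ID. For 60.2% both group means were below background. A fold written as "at least" sets the geometric mean of the 1 h signals as deposited against the background level. Named genes are the 15 largest rises and 12 largest falls that passed with 3 of 3 pairs alike, and per list up to 4 members that passed and the 2 that did not pass with the highest mean signal at 1 h and 0 h. The members that did not pass are not printed for every list. Some genes outside this rule, Dusp5 and Spry4 among them, were named after their values were seen. Members and lists were chosen with earlier results of these data known. Promoter windows and miRNAs are RefSeq's, chromosome 18 left out. The fitting steps were tested on simulated data.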

Additional observations from a re-analysis of the deposited data

How the results depend on the processing

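At an adjusted p under 0.05 limma called 60 probe sets higher and 12 lower. Counts stayed within 1.5 times of these with the summary method as the block, with 64 or 4 added before log2 and with robust moderation. With the 6 arrays of 1 h and 0 h alone, 10 were higher and 3 lower, on the deposited scale 27 and 5, and with median scaling 20 and 2. With values raised to the background level, limma called 6 higher and 0 lower (706 lower at an unadjusted p under 0.05). With the dimmest 25% left out of 22511 probe sets, 92 were higher and 24 lower, all 60 and all 12 among them. Without the intensity trend limma called 0 and 0, with 837 higher and 697 lower at an unadjusted p under 0.05, and with the Gapdh ratio as a covariate 0 and 0, with 576 and 482. Leaving out arrays gave 3 to 53 higher and 0 to 4 lower. The fit without the replicate block called 25 higher and 4 lower, all of them among the 60 and 12. For the 12 named genes with a set A probe set, 3 passed there, also without the replicate block and after quantile normalization, and 1 to 3 when a replicate was left out. The cause of these changes was not tested, apart from the fewer arrays or probe sets tested. Of 567 results for the 27 named genes, 253 kept the call, 314 did not, and 0 of 1512 over all 72 probe sets changed sign.

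Signals near background, a median residual SD of 0.60 on the log2 scale and 3 arrays a time limit what could pass. Over all probe sets the paired differences of the 3 replicates correlated at 0.040 to 0.065, and at 0.478 to 0.574 over the 3131 with a mean signal above 1000, a description across probe sets.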
